A study of Mus musculus with 2 samples.

Results

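Apoe, Tmem176a and Tmem176b are 3 of the 31053 genes in the count tables of 2 single-cell RNA-seq libraries of mouse bone marrow. They were chosen by gene symbol with their levels in these libraries already known, namely their levels by sort, by detection of Kit and by the share of each cell's UMIs that came from Prss34, so every value along those 3 axes is a description and none of it was tested. A UMI is a molecular tag that counts 1 captured RNA molecule. Both libraries came from FVB mice and held bone marrow cells sorted for E-cadherin on their surface. The first held cells with cKIT, the stem cell factor receptor that marks progenitors (cKIT+), and the second held cells without it (cKIT-). Each sort gave 1 library, so no spread between animals or sorts could be measured, and every interval below is a 95% interval that covers counting error alone. A figure legend of the study describes the donors as several Vav-iCre;mTmG mice, in which Cre under the Vav promoter switches on a green reporter in blood cells. The study's results text calls the donors wild-type mice. Which mice went into which library and their age are not given in the sources used here, so the sort, the animals and the library cannot be told apart. The labels and the study's methods differ on the version of the droplet 3′ kit, which was not settled here.

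Basophils are granulocytes that arise in the bone marrow from granulocyte progenitors and share part of their early program with mast cells. As they mature they fill granules with the proteases Mcpt8 and Prss34, display the high-affinity IgE receptor and lose cKIT, and the Prss34 share of a cell's RNA is used here to order the basophil-like cells. A low share does not by itself mark an early cell. The cells of cluster 0 described below had little Prss34, but their leading genes held Ccl4, Ccl6 and Lilr4b, from the list of mature basophil genes. They held no Kit UMI in the cKIT- library, which was sorted against cKIT and had 20 Kit UMIs in 3662 cells. The stage of these cells was not tested. Apolipoprotein E, the product of Apoe, is a secreted protein that binds lipids and delivers lipoprotein particles to receptors of the LDL receptor family, and among blood cells it is best known as a product of macrophages. Tmem176a and Tmem176b encode membrane proteins with several passes through the membrane that are related to the MS4A family, and they have been studied mostly in dendritic cells and other myeloid cells.

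Tmem176a (ENSMUSG00000023367) and Tmem176b (ENSMUSG00000029810) are neighbours on chromosome 6 and are read in opposite directions. In the GENCODE M21 annotation of GRCm38, Tmem176b spans positions 48833818 to 48841496 on the minus strand and Tmem176a spans 48840919 to 48847071 on the plus strand, so that the 5′ ends of the 2 genes overlap by 578 bases. The kit reads the 3′ ends of transcripts, which lie outside that overlap, and the strand setting of the counting was not checked. Apoe (ENSMUSG00000002985) lies on chromosome 7 from 19696109 to 19699188 on the minus strand, 3449 bases from Apoc1 and 2125 bases from Tomm40. The promoter windows of the 3 genes are shown because the paired Tmem176 genes share theirs, and because the 3 genes fell together along the Prss34 axis. Each window is the RefSeq sequence of GRCm38.p6 from 250 bases before a start site to 50 bases after it, for the listed start site nearest to the 5′ end of the gene. For Tmem176a that start site is 48841483, and its window does not reach the GENCODE 5′ end at 48840919. The start sites used for the 2 Tmem176 genes point away from each other, unlike the overlapping GENCODE 5′ ends. Capitals mark GAGGAA, the motif searched for PU.1, or its reverse complement, and other possible sites of ETS factors are not marked.
Tmem176b, chr6:48841325-48841624, minus strand: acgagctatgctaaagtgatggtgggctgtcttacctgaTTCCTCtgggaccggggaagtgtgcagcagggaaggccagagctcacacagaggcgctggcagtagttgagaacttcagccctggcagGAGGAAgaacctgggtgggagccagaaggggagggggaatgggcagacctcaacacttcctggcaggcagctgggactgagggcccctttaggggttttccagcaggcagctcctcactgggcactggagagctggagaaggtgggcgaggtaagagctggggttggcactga
Tmem176a, chr6:48841233-48841532, plus strand: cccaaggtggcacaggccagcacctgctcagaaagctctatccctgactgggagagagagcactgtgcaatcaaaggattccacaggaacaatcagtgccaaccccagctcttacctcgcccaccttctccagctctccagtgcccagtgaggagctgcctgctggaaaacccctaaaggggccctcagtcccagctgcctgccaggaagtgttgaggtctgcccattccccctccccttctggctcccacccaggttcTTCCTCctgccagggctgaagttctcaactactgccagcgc
Apoe, chr7:19699139-19699438, minus strand: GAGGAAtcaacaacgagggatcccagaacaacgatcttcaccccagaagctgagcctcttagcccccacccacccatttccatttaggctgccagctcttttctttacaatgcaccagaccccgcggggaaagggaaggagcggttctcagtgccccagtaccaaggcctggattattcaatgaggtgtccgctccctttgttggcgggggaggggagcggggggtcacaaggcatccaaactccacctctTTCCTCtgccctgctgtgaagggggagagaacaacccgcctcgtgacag
The Tmem176a and Tmem176b windows share 208 of their 300 bases, read from opposite strands, and their start sites lie 109 bases apart. GAGGAA was found 2 times in the Apoe window, 1 time in that of Tmem176a and 2 times in that of Tmem176b, and 1 of the matches is the same site seen from both Tmem176 windows. It occurs on either strand in 28.3% of the 32851 promoter windows of that length. Neither strand of any of the 3 windows held GATAA (25.4% of all windows), CACGTG (7.15%), TTGCNNAA (10.8%), TGTGGT (16.8%), GGGCGG (35.7%), TATAAA (13.6%) or 2 copies of AGGTCA with 4 bases between them (0.0152%). These matches are a description of letters in 1 window per gene.

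After the cell filter, the cKIT+ library held 6479 cells with a median of 13039 UMIs and the cKIT- library 3662 cells with a median of 4416 UMIs. The libraries shared 10 cell barcodes. Clustering gave 25 clusters, and 10 of them, named basophil-like from their markers, held 58.8% of the cKIT+ cells (3809 cells) and 38.1% of the cKIT- cells (1394 cells). In several of these clusters the leading genes were cell-cycle genes, and the name rests on the 6 to 10 of 10 basophil markers expressed. Clusters 0 and 3 also expressed 8 and 10 of the 10 but had none of these 10 and the lymphoid marker Il7r among their leading genes, which by the naming rule left them unnamed, and they are given by number. Their leading genes also held Ccl4, Ccl6 and Lilr4b, and in cluster 3 Ccl3, which are in the list of mature basophil genes used below. The lymphoid list summed to 527 and 521 CPM in the cKIT- cells of clusters 0 and 3, below the 612 CPM of the basophil-like cKIT- cells with a Prss34 share of 4% or more. They held 33.3% and 17.0% of the cKIT- cells, and 1.11% and 0.463% of the cKIT+ cells. As a check of the sort, Kit stood at 37.1 CPM in the cKIT+ and 0.875 CPM in the cKIT- library, and Cdh1, which encodes E-cadherin, at 62.8 and 193.4 CPM.

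In the basophil-like cKIT+ cells all 3 genes were highest in the cells with the least Prss34 and lower in each later range, with Tmem176b falling furthest. Levels are given as CPM, the gene's UMIs summed over a group of cells per 1000000 UMIs of that group, and they compare 1 gene between groups, not 1 gene with another. Apoe stood at 1752 CPM (1732 to 1773) in the 1009 cells with a Prss34 share under 0.1%. It was 1360, 1211, 933, 719 and 573 CPM in the ranges 0.1 to 0.5%, 0.5 to 1%, 1 to 2%, 2 to 4% and 4% or more, which held 456, 342, 598, 916 and 488 cells. The intervals of neighbouring ranges did not overlap for Apoe at any of the 5 steps. Even in the last range, Apoe was an abundant transcript, found in 65.2% of cells at 2000 UMIs per cell.

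Tmem176a and Tmem176b followed the same order of ranges. Tmem176a went through 126.6, 116.8, 97.0, 89.4, 57.5 and 31.6 CPM over the same 6 ranges. Tmem176b went through 191.8, 141.4, 101.4, 86.5, 52.1 and 25.2 CPM. The first and second ranges of Tmem176a had overlapping intervals (121.1 to 132.3 and 109.0 to 124.9 CPM), as did those of the ranges 0.5 to 1% and 1 to 2%, and those of Tmem176b were apart at every step.

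**Figure D1:**
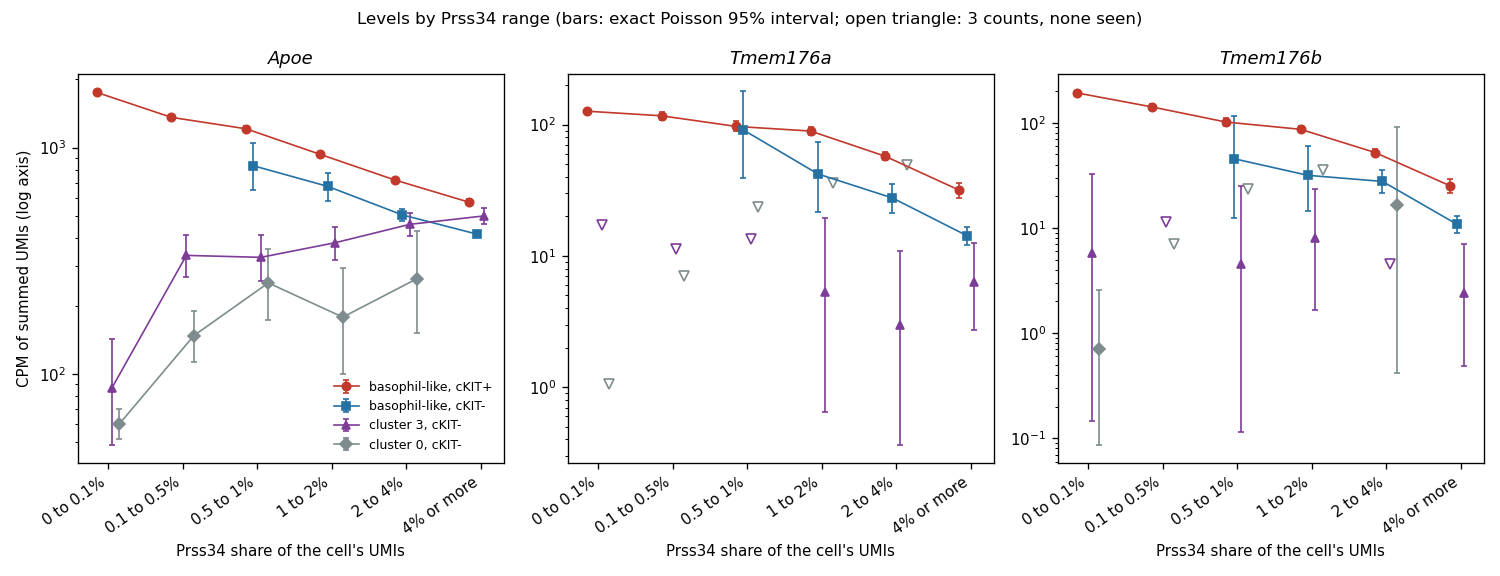
CPM of Apoe, Tmem176a and Tmem176b (log axis, 1 panel per gene) by range of the Prss34 share of a cell's UMIs, for groups of at least 10 cells; points are sums over cells, bars exact Poisson intervals and open triangles mark 3 counts where none was seen. The basophil-like cKIT+ cells fall from left to right in every panel, Apoe from 1752 to 573 CPM, while Apoe in cluster 0 and cluster 3 of the cKIT- library is lowest at the left.

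Cut at a Prss34 share of 1%, the 1807 cells below the cut held 1551 CPM of Apoe and the 2002 cells above it 753.5 CPM, a ratio of 2.06 (2.03 to 2.09). Tmem176a stood at 118.6 against 61.8 CPM, a ratio of 1.92 (1.81 to 2.03). Tmem176b stood at 162.0 against 56.9 CPM, a ratio of 2.85 (2.70 to 3.01), the highest of the 2896 genes with at least 50 CPM on either side of the cut. Apoe held place 10 in that order and Tmem176a place 16. Of those genes 0.414% were at least 2-fold higher below the cut, which is 12 genes with Apoe and Tmem176b among them, and since the 3 genes were chosen on this contrast nothing is read from that count. The 121 cells just below the cut, from 0.8 to 1%, had 1232 CPM of Apoe, 91.7 of Tmem176a and 96.6 of Tmem176b, and the 107 cells just above it, up to 1.2%, had 1089, 103.6 and 90.3 CPM.

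The fall was seen in the share of cells as well as in the level. With every cell thinned to 2000 UMIs, Apoe was found in 88.8% of the cells below the cut and 71.2% above it, Tmem176a in 18.9% and 10.4%, and Tmem176b in 27.0% and 10.6%. Without thinning the same shares were 99.1% and 97.9% for Apoe, 74.5% and 46.7% for Tmem176a, and 80.3% and 42.6% for Tmem176b, at median depths of 14551 and 14516 UMIs. In neutrophil-like cells of the same library, cluster 17, Apoe was found in 3.23% of 155 cells (1.06 to 7.37%) at 2000 UMIs. Neither Tmem176 gene was found in any of them, where 3 cells would be 1.94%. These cells had a median of 5718 UMIs. The UMIs were spread over many cells, as the 10 highest cells held 1.24% of the Apoe UMIs of the basophil-like cKIT+ cells, 1.66% of those of Tmem176a and 2.08% of those of Tmem176b.

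Between the sorts, all 3 genes were higher in the cKIT+ library. Over all kept cells, Apoe stood at 929.7 CPM in the first and 379.5 CPM in the second library, 2.45-fold apart (2.40 to 2.51). Tmem176a stood at 83.0 and 16.8 CPM, 4.93-fold apart (4.45 to 5.48), and Tmem176b at 102.0 and 16.6 CPM, 6.15-fold apart (5.55 to 6.84). All 3 passed 2-fold, as did 6.14% of the 3224 genes with at least 50 CPM in either library. In the basophil-like cells alone the levels were 1135 and 439.5 CPM for Apoe, 88.9 and 17.5 CPM for Tmem176a, and 107.2 and 14.5 CPM for Tmem176b. The ratios there were 2.58 (2.52 to 2.65), 5.08 (4.48 to 5.79) and 7.40 (6.45 to 8.53), in places 49, 9 and 6 of 3081 genes, of which 3.67% were at least 2-fold higher. As UMIs per cell the ratios over all kept cells were 5.52, 11.1 and 13.9, at the median depths given above.

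Most of the basophil-like cKIT- cells were rich in Prss34, so the libraries were also compared within 1 range. In the range of 4% or more, which held 488 cKIT+ and 1103 cKIT- cells, Apoe was 1.38-fold (1.32 to 1.44) higher in the cKIT+ cells, at 573 against 415 CPM. Tmem176a was 2.22-fold (1.80 to 2.73) and Tmem176b 2.34-fold (1.85 to 2.96) higher there. In the range of 2 to 4%, with 916 and 242 cells, the ratios were 1.43 (1.34 to 1.52), 2.08 (1.61 to 2.73) and 1.88 (1.46 to 2.48). In both ranges the ratio of each gene was smaller than that over all basophil-like cells, with an interval above 1. The Prss34 share was not equal within the ranges, at 50692 CPM in the cKIT+ and 61896 CPM in the cKIT- cells at 4% or more, and 29389 and 32003 CPM at 2 to 4%, and the part of that gap in the ratios was not tested. Under 1% the cKIT- library had 17 basophil-like cells, too few to compare by range.

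Within each of the 4 basophil-like clusters with at least 50 cells of each library, all 3 genes were again higher in the cKIT+ cells. Apoe differed by 1.42-fold in cluster 4, 1.501-fold in cluster 1, 1.54-fold in cluster 8 and 1.84-fold in cluster 13. Tmem176a differed by 2.07-fold to 4.75-fold and Tmem176b by 2.40-fold to 3.40-fold. All 12 intervals lay above 1.

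**Figure D2:**
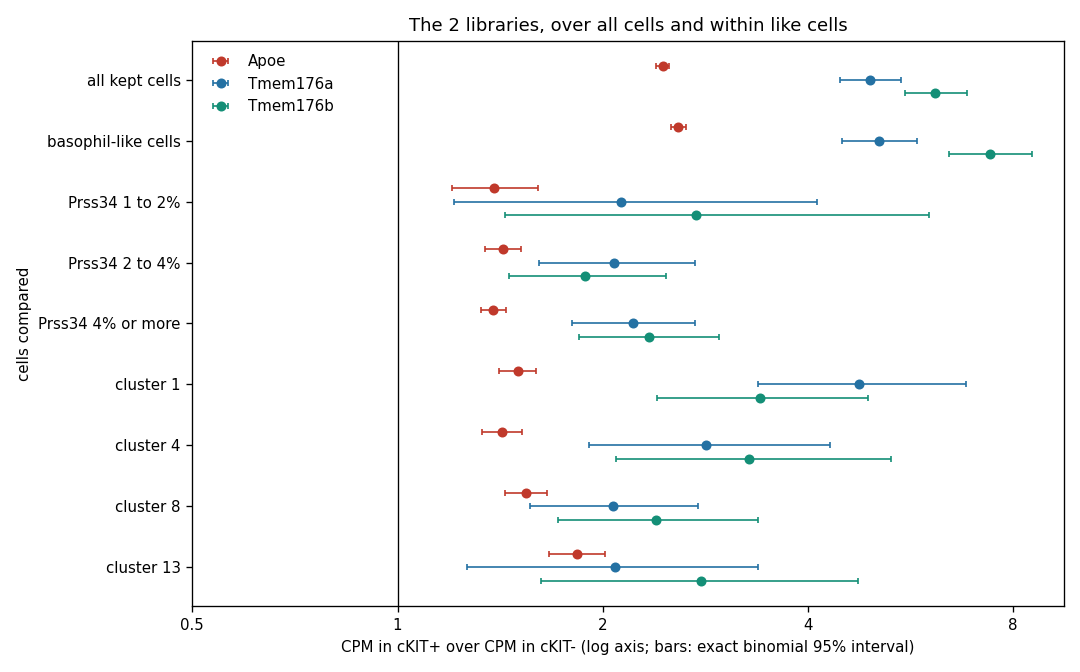
Ratio of CPM in the cKIT+ library to CPM in the cKIT- library (log axis) for Apoe, Tmem176a and Tmem176b, over all kept cells, over basophil-like cells, within 3 ranges of the Prss34 share and within the clusters that hold at least 50 cells of each library; bars are exact binomial intervals. Every point lies to the right of 1. For each gene, the points of the Prss34 ranges lie left of its point over all basophil-like cells. For Apoe that is 1.38 at a Prss34 share of 4% or more against 2.58.

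The ratios by Kit detection were smaller than those by Prss34, but the 2 splits are not alike. The 3809 basophil-like cKIT+ cells, all sorted for surface cKIT, held 1419 Kit UMIs (24.1 CPM). A cell without a Kit UMI therefore need not lack Kit RNA, and these ratios do not measure dependence on the Kit level. The 1014 basophil-like cKIT+ cells with a Kit UMI had 1379 CPM of Apoe and the 2795 cells without one 1030 CPM, a ratio of 1.34 (1.32 to 1.36). Tmem176a stood at 101.7 and 83.5 CPM, a ratio of 1.22 (1.15 to 1.29), and Tmem176b at 144.4 and 91.2 CPM, a ratio of 1.58 (1.51 to 1.67). Over all ranges together no member passed 2-fold, and 1 gene did, Kit itself, which is 0.0353% of 2830 genes. Within the range of Prss34 under 0.1% the ratios were 1.01 (0.990 to 1.04) for Apoe, 0.941 (0.861 to 1.03) for Tmem176a and 1.05 (0.981 to 1.13) for Tmem176b. In the range of 2 to 4% they were 1.202 (1.15 to 1.26), 1.08 (0.904 to 1.29) and 1.35 (1.13 to 1.60). At 4% or more, where 34 cells had a Kit UMI, they were 1.14 (1.02 to 1.27), 1.22 (0.740 to 1.92) and 2.20 (1.41 to 3.32), the last from 28 UMIs against 142. Over the 6 ranges the Apoe ratio lay between 0.999 and 1.202, and that of Tmem176a between 0.883 and 1.22 with every interval including 1. Over all kept cKIT+ cells, with the other cell types included, Apoe and Tmem176a turned to 0.887 and 0.934, and Tmem176b remained above 1 at 1.19. Basophil-like cKIT+ cells with a Kit UMI were also deeper, at a median of 16634 against 13778 UMIs. With Kit read after thinning to 2000 UMIs, 145 cells held it, and the ratios were 1.37, 1.21 and 1.515. Within the ranges these thinned intervals included 1, except for Apoe at 0.1 to 0.5% (1.44, 1.11 to 1.84). The other exception was Tmem176b at 4% or more (8.93, 1.004 to 37.3), from 2 UMIs against 18.

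In the unnamed clusters of the cKIT- library, Apoe ran the other way and was lowest in the cells with the least Prss34. Cluster 3 held 423 CPM of Apoe in its 624 cKIT- cells and cluster 0, whose 1219 cKIT- cells were mostly low in Prss34, held 85.1 CPM, so that Apoe in cluster 0 was 0.201 of that in cluster 3 (0.177 to 0.228). That was place 13 from the bottom of 3025 genes, of which 1.22% were at least 2-fold lower in cluster 0. Within cluster 3, Apoe went from 86.7 CPM (48.5 to 142.9) at a Prss34 share under 0.1% through 334, 327, 380.1 and 458 CPM to 499 CPM (461 to 540) at 4% or more. Within cluster 0 it stood at 60.1, 147.6 and 252.4 CPM in the lowest 3 ranges and at 178.2 and 264.0 CPM in the ranges 1 to 2% and 2 to 4%. From 0.5% on these intervals overlapped. Low levels of Prss34 and Apoe were also seen in B cell-like cluster 18, which expressed 0 of the 10 basophil markers by the naming rule. Over both libraries it held 1701 CPM of Prss34 and 304 CPM of Apoe, against 1733 and 89.0 CPM in cluster 0. The part of RNA from other cells in these levels was not tested.

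The Tmem176 genes were close to absent from these cells. In the cKIT- library, cluster 0 held no Tmem176a UMI among 1219 cells, where 3 counts would be 0.851 CPM, and 3 UMIs of Tmem176b. Cluster 3 held 12 UMIs of Tmem176a (4.05 CPM) and 8 of Tmem176b (2.70 CPM). The exact interval of the ratio of cluster 0 to cluster 3 ran from 0 to 0.303 for Tmem176a and from 0.0539 to 1.31 for Tmem176b. At a like Prss34 share of 4% or more, the basophil-like cells of that library had 14.3 CPM of Tmem176a and 10.8 CPM of Tmem176b against 6.35 and 2.38 CPM in cluster 3, and the intervals of Tmem176a overlapped at their ends. Cells low in Prss34 thus fell into groups with unlike levels of the 3 genes, from different sorts and libraries. At a Prss34 share under 0.1%, the basophil-like cKIT+ cells held 1752 CPM of Apoe and 191.8 CPM of Tmem176b. The cluster 0 cells of the cKIT- library held 60.1 and 0.711 CPM at that share. Median depths were 14578 UMIs in the first group and 2912 UMIs in all cKIT- cells of cluster 0. In the cKIT+ library, the 72 cells of cluster 0 held 30 UMIs of Apoe, 0 of Tmem176a and 1 of Tmem176b. The summed level of the 16 cell-cycle genes was 1136 CPM in cluster 0 and 1162 CPM in cluster 3 of the cKIT- library. It was 3566 CPM in the basophil-like cKIT+ cells with a Prss34 share under 0.1%. This sum does not by itself mark stage, as basophil-like cluster 2 held 888 CPM and cluster 10, with the highest Kit level, 592 CPM. The basophil-like cKIT- cells with a Prss34 share of 4% or more held 8131 CPM.

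Only 17 basophil-like cKIT- cells had a Prss34 share under 1%, and in them Apoe was 2.16-fold (1.82 to 2.53), Tmem176a 4.05-fold (2.00 to 7.37) and Tmem176b 4.94-fold (2.43 to 9.03) higher than in the 1377 cells above the cut. With clusters 0 and 3 added, a grouping tried after the values were seen, the same ratios turned to 0.323, 0.173 and 0.292. They also turned, to 0.260, 0.171 and 0.254, with clusters at resolution 2. The direction of this contrast in the cKIT- library therefore depends on which Prss34-low cells count as basophil-like. In the cKIT+ library the 3 ratios stayed above 1 under all 13 alternatives. Clusters 0 and 3 held 72 and 30 cKIT+ cells, against 1219 and 624 cKIT- cells. Adding them could therefore hardly move the cKIT+ ratios. The 3 genes were chosen with this contrast known, so its stability in the same cells is a description.

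Apoe was also lower in cells with a transcript of the dividing cell, in every Prss34 range. For the Tmem176 genes, which had far fewer UMIs, the intervals within ranges included 1. Basophil-like cKIT+ cells were split by a UMI of Mki67 or Top2a, genes of dividing cells, with each cell thinned to 2000 UMIs. The 1960 cells with such a UMI had 958 CPM of Apoe and the 1849 without had 1443 CPM, a ratio of 0.664 (0.637 to 0.692). Within the 6 Prss34 ranges the ratio was 0.720 to 0.833, and each interval lay below 1. In cells without such a UMI, Apoe still went from 2123 CPM in the lowest range to 703 CPM in the highest, and in cells with one from 1613 to 585 CPM. The ratio over all ranges was 0.980 (0.836 to 1.15) for Tmem176a and 0.799 (0.695 to 0.918) for Tmem176b, and within each range the intervals of both genes included 1. At 4% or more they rest on 20 against 6 UMIs of Tmem176a and 11 against 9 of Tmem176b, where Apoe had 398 and 208. In the ranges from 2% on, these intervals also included the Apoe ratio of the same range. In the ranges under 0.5% they lay above it. The summed level of the cell-cycle list rose from 3566 CPM in the lowest Prss34 range to 7044 CPM in the highest, so it moved with Prss34 itself.

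**Figure D3:**
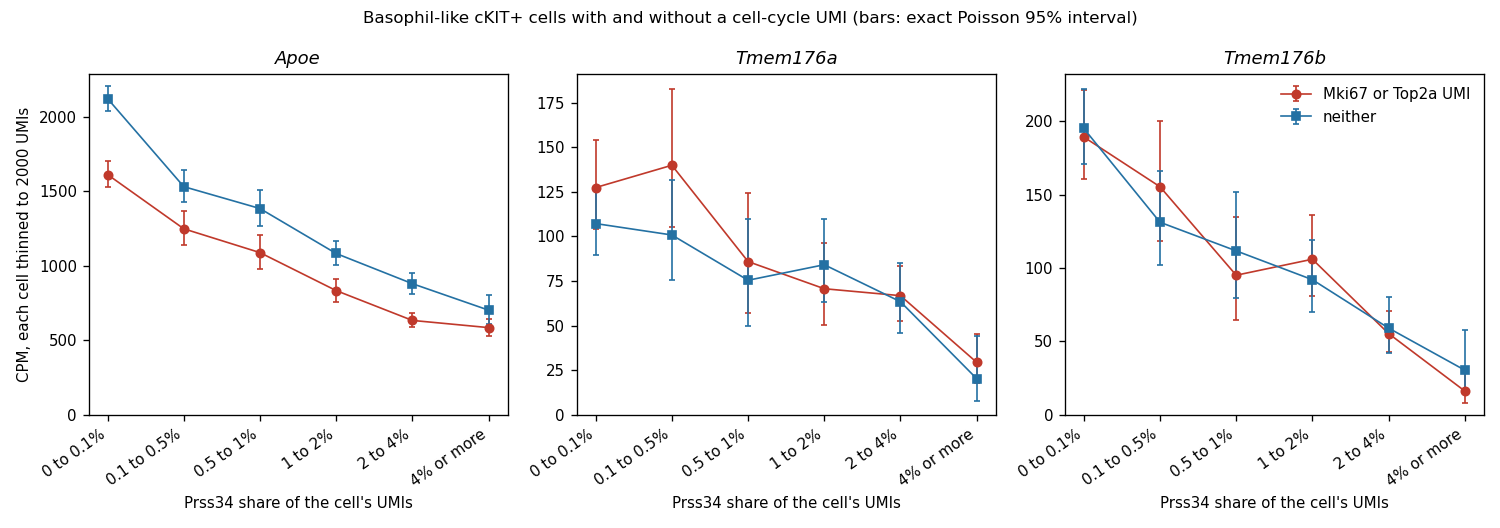
CPM of Apoe, Tmem176a and Tmem176b in basophil-like cKIT+ cells thinned to 2000 UMIs, by range of the Prss34 share, for cells with and without a UMI of Mki67 or Top2a; bars are exact Poisson intervals. In the Apoe panel the cells with such a UMI lie below the others in all 6 ranges (1613 against 2123 CPM in the lowest), and in the other panels the bars overlap.

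The highest levels of all 3 genes were outside the basophil lineage. The macrophage-like cluster 21, with C1qa, C1qb and C1qc in the lead, held 13621 CPM of Apoe, 740.2 CPM of Tmem176a and 920.3 CPM of Tmem176b over its 118 cells. Cluster 22, a mixture led by the plasma cell genes Jchain and Igha with Cd209a and MHC class II genes, held 666 CPM of Tmem176a and 616 CPM of Tmem176b but 209 CPM of Apoe. It had 110 cells, and was left unnamed. Among the other classes, Apoe stood at 149 CPM in granulocyte/monocyte progenitor-like cells, 506 CPM in eosinophil-like cells, 470.0 CPM in monocyte-like cells and 280.2 CPM in erythroid-like cells. Tmem176b ran from 63.7 CPM in the progenitor-like cells to 94.1 CPM in the eosinophil-like and 111 CPM in the monocyte-like cells, and was 22.9 CPM in the erythroid-like cells. The monocyte-like cells differed between the sorts in the other direction, with Apoe at 364.2 CPM in the 89 of the cKIT+ and 792.4 CPM in the 48 of the cKIT- library, and Tmem176b at 82.3 and 200.1 CPM. The neutrophil-like clusters held 273 CPM of Apoe in cluster 16, led by Camp, Ngp and Ltf, whose interval overlapped that of the erythroid-like cells, and 30.6 CPM in cluster 17, led by Retnlg and Mmp9. The intervals of Apoe in cluster 11, the monocyte-like and the eosinophil-like cells overlapped, at 473, 470.0 and 506 CPM. Prss34 was also counted outside the basophil-like clusters, at 961 CPM in the erythroid-like cells, 3094 CPM in cluster 16 and 3061 CPM in cluster 22. The part of RNA from other cells in the levels of these classes was not tested.

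Within the basophil-like clusters Apoe was highest in clusters 12, 15 and 2, at 1702, 1686 and 1590 CPM, and lowest in clusters 4 and 1, at 490.1 and 451 CPM. The intervals of clusters 12 and 15 overlapped. Tmem176a and Tmem176b were highest in cluster 15, at 127.4 and 178.0 CPM, with intervals that overlapped those of clusters 2 and 12 for Tmem176a and of cluster 12 for Tmem176b. Cluster 10, unnamed, led by Gzmb and the mast cell chymase Cma1 and with the highest Kit level of all clusters at 172.5 CPM, held 863 CPM of Apoe, 80.9 CPM of Tmem176a and 116.6 CPM of Tmem176b. None of its 435 cells came from the cKIT- library, whose 3662 cells allow a share of up to 0.101%. At a Prss34 share under 0.1%, the basophil-like cKIT+ cells were higher than cluster 10 by 2.01-fold (1.94 to 2.09) in Apoe, 1.54-fold (1.36 to 1.74) in Tmem176a and 1.62-fold (1.46 to 1.79) in Tmem176b.

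**Figure D4:**
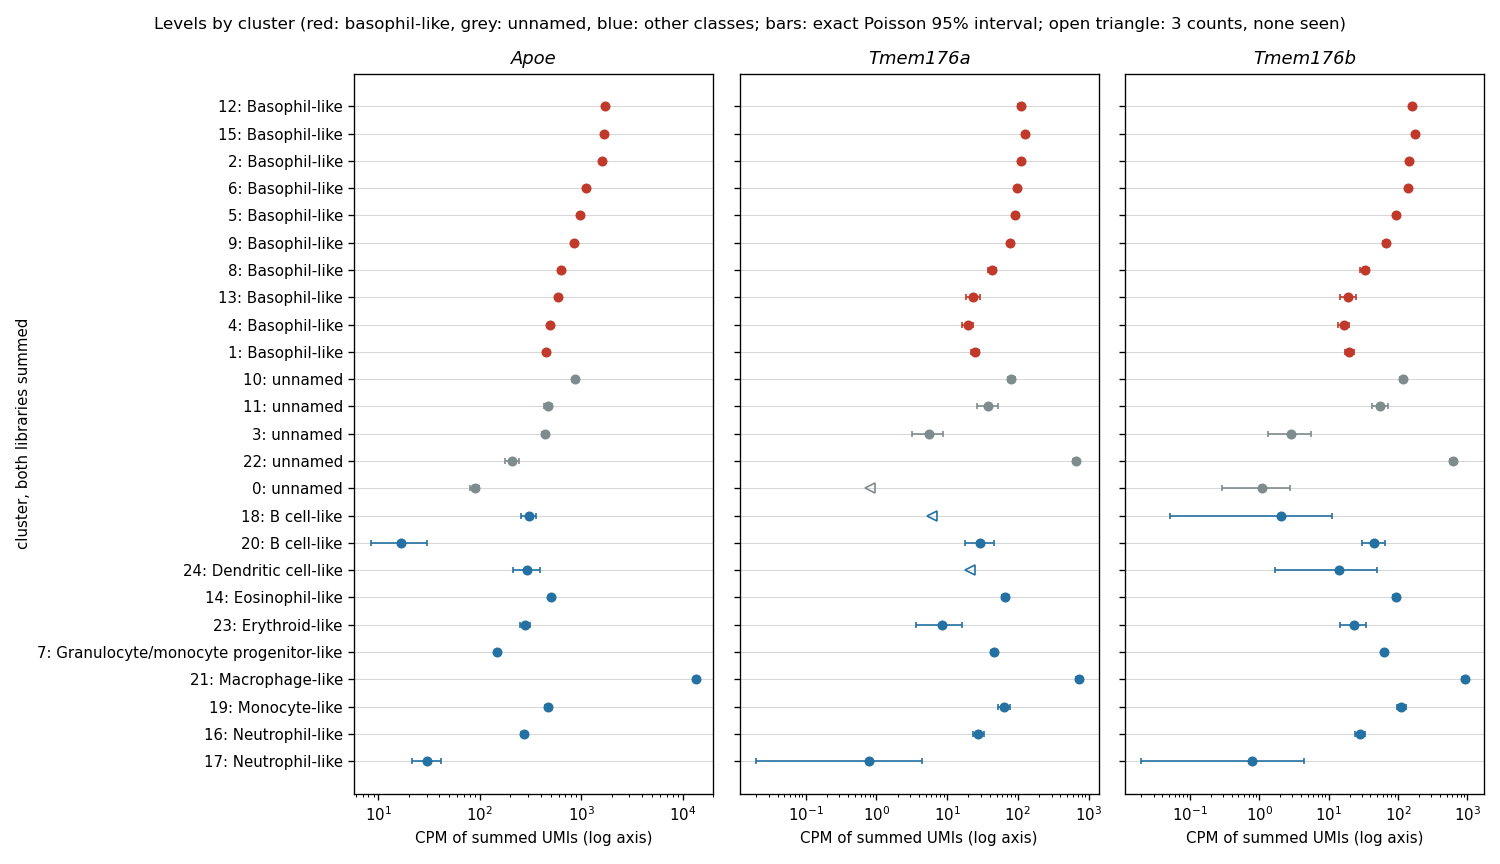
CPM of Apoe, Tmem176a and Tmem176b (log axis) in each of the 25 clusters, both libraries summed, in red for basophil-like, grey for unnamed and blue for other classes; bars are exact Poisson intervals and open triangles mark 3 counts where none was seen. The macrophage-like cluster 21 lies far to the right of all others for Apoe at 13621 CPM, and cluster 22 stands beside it for the Tmem176 genes.

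The basophil-like cells held 78.8% of the Apoe UMIs of the cKIT+ library, 69.2% of those of Tmem176a and 67.9% of those of Tmem176b. The macrophage-like cells were 1.68% of the cKIT+ cells and held 8.84%, 4.90% and 5.16%. Macrophage transcripts were rare in the basophil-like cells. All 10 genes of the macrophage list were seen in the cells with a Prss34 share under 0.1%, at 26.5 CPM in sum, and the sum ran from 13.1 to 26.5 CPM over the 6 ranges against 19275 CPM in the macrophage-like cells of that library. Cd5l was at 0 in 4 of the 6 ranges, and C1qb and C1qc were also at 0 in the last. For each UMI of C1qa, C1qb or C1qc there were 1.34 UMIs of Apoe in the macrophage-like cells and 206 in the basophil-like cells with a Prss34 share under 0.1%. With the cells that held such a UMI left out, the ratios of the 3 genes below and above the Prss34 cut stayed within their intervals.

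Few genes around Apoe and of the pathways it serves were abundant enough to compare, and none of those passed 2-fold across the Prss34 cut. Of 14 apolipoproteins and genes near Apoe, 1 reached 50 CPM on either side of the Prss34 cut, Tomm40, a subunit of the mitochondrial import channel, at 93.4 against 68.9 CPM (1.36-fold, 1.28 to 1.44). Apoc1, the apolipoprotein gene next to Apoe, was under that minimum at 12.0 and 3.91 CPM, a ratio of 3.07 (2.49 to 3.82). Of 9 lipoprotein receptors 1 reached it, Lrpap1, a chaperone of these receptors, and it stood at 0.890. Of 16 genes of cholesterol efflux, LXR signalling and lysosomal cholesterol handling 3 reached it, namely Npc2 at 1.02, Scd2 at 1.22 and Mylip at 0.891, and of 18 cholesterol synthesis genes 1, Fdps, at 0.845. The median ratio of all 2896 genes was 1.02. Between the sorts, in basophil-like cells, 1, 1, 4 and 1 genes of these 4 lists reached the minimum, and 1 of them passed 2-fold. Among all 3081 genes 3.67% were at least 2-fold higher in the cKIT+ cells. The listed gene was Scd2, a fatty acid desaturase, at 57.6 CPM in cKIT+ and 19.8 CPM in cKIT- cells (2.91-fold, 2.58 to 3.30). Under the minimum, Apoc1 stood at 7.78 and 0.961 CPM, a ratio of 8.10 (4.78 to 14.9) from 458 UMIs against 14. Apoc4, also near Apoe, went the other way at 0.165 (0.0343 to 0.696), from 4 UMIs against 6.

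The relatives and neighbours of the Tmem176 genes that reached the minimum were lower below the cut, within 2-fold. Of 11 MS4A genes 2 reached 50 CPM. Ms4a2, the beta chain of the IgE receptor, stood at a ratio of 0.811 and Ms4a3, a gene of granulocyte progenitors, at 0.663. Of 10 genes beside Tmem176a and Tmem176b 2 reached it, the GTPase genes Gimap1 and Gimap9, at 0.852 and 0.868. Between the sorts, in basophil-like cells, 3 MS4A genes and 2 of the neighbours reached the minimum, and 1 of them passed 2-fold. It was Ms4a6b, which was lower in the cKIT+ library at 35.4 against 73.4 CPM (0.483, 0.448 to 0.520). The share of all genes that much lower in this contrast is not given here, so nothing is read from that count.

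Among the 10 early progenitor genes, 4 reached 50 CPM and 1 of them was at least 2-fold higher below the cut, against 0.414% of all 2896 genes. Cd34, a surface marker of progenitors, stood at 131.6 CPM below the cut and 56.5 CPM above it, a ratio of 2.33 (2.20 to 2.47). Myc and Myb, transcription factors of dividing progenitors, stood at 1.77 and 1.63, and Gata2, a factor of the basophil and mast cell lineages, at 0.775. Kit at 36.7 and 12.6 CPM, Cd27 at 30.2 and 10.5 CPM and Meis1 at 20.04 and 8.50 CPM were under the minimum, with ratios of 2.92, 2.88 and 2.36. Gfi1b, Flt3 and Hmga2 of the same list were also under it, and their ratios are not given here. Of 14 mature basophil genes 9 reached the minimum and 5 were at least 2-fold lower below the cut, namely Prss34, which set the cut, Mcpt8, Fcer1a, Ccl3 and Ccl6. Among all genes 1.86% were that much lower. Hdc, which makes histamine, stood at 1.06.

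**Figure D5:**
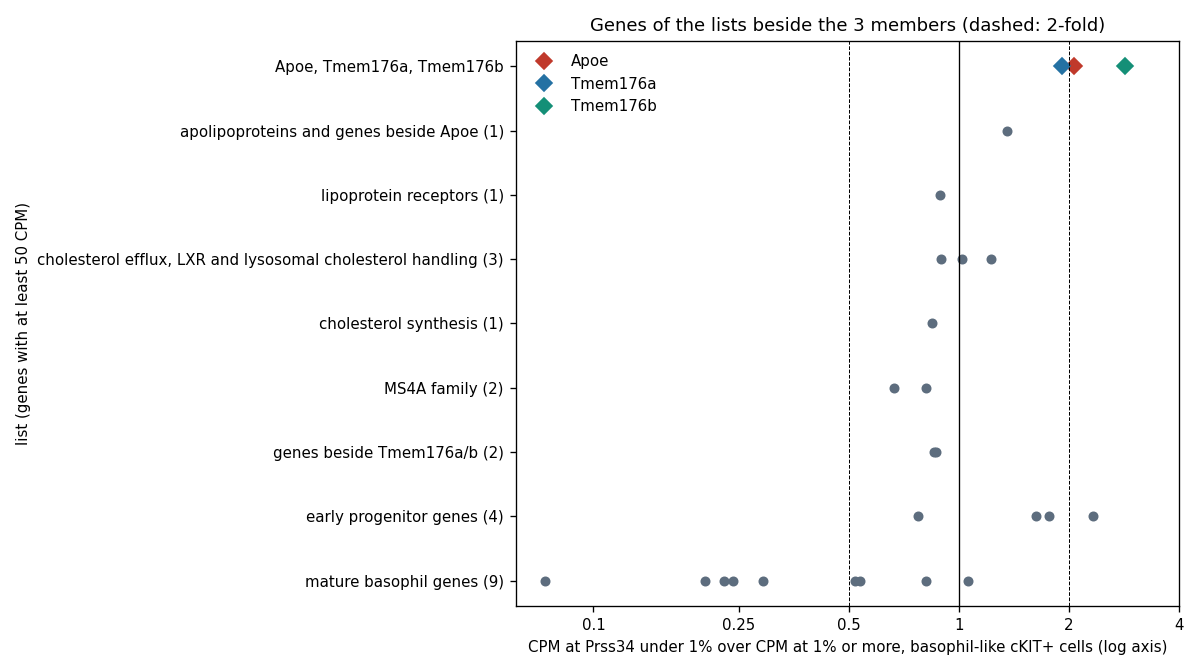
Ratio of CPM in basophil-like cKIT+ cells with a Prss34 share under 1% to CPM in those with 1% or more (log axis) for Apoe, Tmem176a and Tmem176b (diamonds) and for the genes of 8 lists with at least 50 CPM on either side (points, number in brackets); dashed lines mark 2-fold. Cd34 at 2.33 is the 1 listed gene to the right of the upper line, and the 5 points left of the lower line are mature basophil genes.

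Across clusters the genes most like each member were found by Pearson correlation of log2(CPM + 10). Over the 24 clusters of at least 50 cells, Tmem176a and Tmem176b were each other's closest gene among 5966, with r = 0.98. Apoe was closest to Ifi207 at 0.88, Tfpi at 0.87 and Anxa4 at 0.84, and its r with Tmem176a was 0.62 and with Tmem176b 0.61. Within the 10 basophil-like clusters, Tmem176b was closest to Ramp1, Cd34 and Glud1 with r of 0.99 each, and Apoe to Kcnq1ot1 at 0.99, Glud1 at 0.97, Rps25 at 0.97 and, in place 4 of 3651 genes, Tmem176b at 0.97, while its r with Tmem176a was 0.94. The clusters share libraries and differ in depth and in cell-cycle genes, and no test was made of these values. The basophil-like clusters also differ in Prss34, from 1740 to 55702 CPM. Over them the r with Prss34 was -0.92 for Apoe, -0.88 for Tmem176a and -0.91 for Tmem176b. The members were chosen with their levels along Prss34 known, so their likeness to each other within these clusters is a description only.

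In single cells the pairs with Apoe were found together about as often as their single shares give. Most cells held Apoe, so that comparison cannot show whether Apoe and the Tmem176 genes vary independently. The Tmem176 pair was found together slightly more often over the pooled cells under 1%. Within single ranges its interval lay above the product only at 0.1 to 0.5%. Of the 1807 basophil-like cKIT+ cells with a Prss34 share under 1%, thinned to 2000 UMIs, 118 held a UMI of both Tmem176a and Tmem176b, which is 6.53% (5.44 to 7.77%) against 5.11% from the product of the single shares. Apoe and Tmem176b were found together in 23.7% (21.7 to 25.7%) against 24.0%, and Apoe and Tmem176a in 17.5% (15.8 to 19.3%) against 16.8%. Apoe itself was found in 88.8% of these cells. Tmem176a was found in 19.7% of the cells with Apoe and 12.9% of the 202 without it, and Tmem176b in 26.7% and 29.7%. At 1000 UMIs the shares of Tmem176a were 11.2% and 11.4%, and those of Tmem176b 15.1% and 12.7%. At 1000 UMIs per cell the Tmem176 pair was found together in 1.99% (1.40 to 2.75%) against 1.63%, so the interval included the product. At 2000 UMIs, within the range under 0.1%, the joint share of the Tmem176 pair was 7.04% (5.54 to 8.79%) against 6.43%. In the range of 0.1 to 0.5% it was 7.46% (5.22 to 10.3%) against 4.68%. In the ranges 0.5 to 1%, 1 to 2% and 2 to 4% it was 3.80%, 2.68% and 1.31% against 2.41%, 2.23% and 1.16%. Each of those intervals included the product. In the range of 4% or more the joint share was 0 of 488 cells, which allows a share of up to 0.753%, against 0.189%. Of the 1807 cells, 2.49% held 2 or more UMIs of Tmem176a at this depth and 4.43% of Tmem176b, so most joint detections rest on few UMIs.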

How the data were processed

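UMI counts per gene and cell were deposited by the authors, who made them with Cell Ranger 3.0.2 and mm10, per the submitters' processing notes. The annotation release is not given in the sources used here. The count tables were not normalized. Per the labels, each sort gave 1 library of 3′ single-cell RNA-seq, so no test was run and no p-value is given.

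Genes seen in at least 40 cells of a library were used to filter the cells and to cluster them. Cells in the highest or lowest 1% of detected genes or the highest 1% of UMIs were left out, after the study's methods. Totals, CPM and fold calls used all genes of the count tables. Counts were summed over the cells of a group and given as CPM with exact Poisson intervals. Ratios carry exact conditional binomial intervals and shares of cells Clopper-Pearson intervals. All are 95% intervals and leave out everything but counting error. For shares, each cell was thinned to 2000 UMIs, and the shallower cells (345 in the cKIT+ and 176 in the cKIT- library) were not used. Fold calls (at least 2-fold) were made among genes with at least 50 CPM in either group. The ratio, interval and thinning code was tested on simulated data.

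Cells were clustered in Seurat 5.3.0 (R 4.3.3) on 2000 variable genes without the 3 members (1997 used), with 15 principal components and resolution 1. Clusters were named for the class that led by marker count in their 10 leading genes, given at least 3 expressed markers. With no marker there, the name came from expressed markers, 5 or more. Clusters were left unnamed on ties and where a second class had more than 1 marker among the leading genes. They were also left unnamed where another class led while 5 or more basophil markers were expressed. No doublet caller was run, and cells in the highest 5% of UMIs were left out as an alternative. Sums used Python 3.11.15, NumPy 2.4.6, SciPy 1.17.1 and pandas 2.3.3.

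The members and gene lists were chosen with earlier results of these data known. Named genes are the members, the genes of the lists, and the genes closest to each member across clusters of at least 50 cells. Alternatives with clusters 0 and 3 pooled, with Kit read after thinning and within 1 Prss34 range were added after seeing the data. Gene positions are those of GENCODE M21, which held 30934 of the gene identifiers, and promoter windows those of RefSeq.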

Additional observations from a re-analysis of the deposited data

Results flagged for a closer look

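Over all kept cells, with every cell type included, Apoe was 1.39-fold higher in cKIT+ cells with a Prss34 share under 1% than in those with 1% or more (1032 against 742.1 CPM), while in cKIT- cells the ratio was 0.492 (214.5 against 436.0 CPM). The 2 libraries moved in opposite directions, and the difference was not tested, with 1 library per sort. Tmem176a and Tmem176b were higher below the cut in both, at 1.57 and 2.25 in the cKIT+ and 1.46 and 2.43 in the cKIT- library. Of the 385 Tmem176a UMIs of the cKIT- library, the macrophage-like, monocyte-like and cluster 22 cells held 48, 36 and 33. Of its 379 Tmem176b UMIs they held 42, 75 and 38. In basophil-like cKIT- cells with clusters 0 and 3 added, the ratios of Tmem176a and Tmem176b were 0.173 and 0.292. The part of other cell types in these ratios was not tested. Of the 1730 cKIT- cells under 1%, 17 were basophil-like, or 1346 with clusters 0 and 3 added. With clusters at resolution 2, 692 such cells were basophil-like.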

How the results depend on the processing

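Of 189 recomputed ratios, 180 stayed above 1, 112 lay within the interval of the reported value, 68 moved beyond it and 9 turned below 1. Unless said otherwise, values are in the order Apoe, Tmem176a, Tmem176b, and ratios not given stayed within their interval. Counts limit the precision, and the spread between animals cannot be judged. No paired analysis was possible because each sort has a single library. The alternative with all deposited cells was not run for basophil-like cells, since clusters were made on kept cells. The cause of these moves was not tested.

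For cKIT+ over cKIT- over all kept cells (2.45, 4.93, 6.15), the ratios were 3.45, 6.78 and 8.82 with cells thinned, 3.45, 7.53 and 8.72 with cells weighted equally, and 5.52, 11.1 and 13.9 as UMIs per cell. Without the highest 5% of cells they were 2.69 and 5.68 for Apoe and Tmem176a. Apoe alone moved to 2.37 over all deposited cells, 2.29 without the 10 most abundant genes in the total and 2.30 without cells with a C1q UMI. In basophil-like cells (2.58, 5.08, 7.40) they were 3.82, 7.51 and 10.9 as UMIs per cell, 2.79, 6.19 and 9.21 at resolution 2 and 2.99, 6.98 and 10.1 with clusters 0 and 3. Apoe moved to 2.79 with thinning, 2.70 with equal weights, 2.39 without the abundant genes and 2.45 without clusters, Tmem176a to 5.92 without the highest 5%, and Tmem176b to 9.50 with thinning, 8.81 without the highest 5% and 6.15 without clusters. In the Prss34 range of 2 to 4% they were 1.53, 2.87 and 2.74 with thinning and 2.38, 3.48 and 3.15 per cell, and in that of 4% or more 1.78, 2.85 and 3.002 per cell, with 1.54 for Apoe with thinning.

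Below over above the Prss34 cut in cKIT+ cells (2.06, 1.92, 2.85), the ratios were 1.39, 1.57 and 2.25 without clusters. Apoe moved to 2.15 with thinning, 2.13 with equal weights, 1.97 without the abundant genes, 2.09 at resolution 2, 1.99 with the cut at 0.5% and 2.02 with cells ordered by Mcpt8. Tmem176b moved to 3.02 at resolution 2, and with the cut at 2% Tmem176a and Tmem176b moved to 2.26 and 3.28. In cKIT- cells (2.16, 4.05, 4.94) they turned to 0.260, 0.171 and 0.254 at resolution 2 and to 0.323, 0.173 and 0.292 with clusters 0 and 3, and without clusters Apoe turned to 0.492 and Tmem176a moved to 1.46. Apoe moved to 1.79 with the cut at 2%, and by the Mcpt8 order Apoe and Tmem176a moved to 1.34 and 1.75. By Kit detection (1.34, 1.22, 1.58) Apoe and Tmem176a turned to 0.887 and 0.934 without clusters and Tmem176b moved to 1.19, and the ratios were 1.58, 1.44 and 1.88 per cell. Apoe moved to 1.37 with equal weights, 1.31 without the abundant genes, 1.38 at resolution 2, 1.44 with 2 or more Kit UMIs and 1.37 with Kit read after thinning, and Tmem176b to 1.501 with thinning and 1.84 with 2 or more Kit UMIs.

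Shares of cells depend on depth by construction. Below the cut in cKIT+ cells, the shares at 1000 UMIs, without thinning and for 2 or more UMIs were 73.4%, 99.1% and 73.7% for Apoe (88.8% reported), 11.3%, 74.5% and 2.49% for Tmem176a (18.9%), and 14.4%, 80.3% and 4.43% for Tmem176b (27.0%). Above it they were 49.1%, 97.9% and 41.8% (71.2%), 5.69%, 46.7% and 1.30% (10.4%), and 4.35%, 42.6% and 1.30% (10.6%). In cKIT- cells above the cut they were 34.4%, 91.4% and 20.5% (51.9%), 1.16%, 10.8% and 0.218% (2.83%), and 0.872%, 9.005% and 0.218% (1.89%). In the 17 cKIT- cells below it, Apoe moved to 100% without thinning and 47.1% for 2 or more UMIs, Tmem176a to 0, 47.1% and 0, and Tmem176b to 0 for 2 or more UMIs.

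With the minimum for a fold call at 10 UMIs or 200 CPM in place of 50 CPM, the genes higher in cKIT+ cells went from 198 to 2465 or 61 over all kept cells and from 113 to 1829 or 41 in basophil-like cells. Below the Prss34 cut, genes higher went from 12 to 780 or 3 and genes lower from 54 to 442 or 14, and genes higher with Kit from 1 to 231 or 0. Leaving out the abundant genes moved the median log2 ratio of all genes from -0.06 to -0.16 over all kept cells, from -0.07 to -0.18 in basophil-like cells and from 0.03 to -0.04 across the Prss34 cut.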

Other observations

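In B cell-like cluster 18 of the cKIT- library, 162 cells held 146 Apoe UMIs (319.1 CPM), and 52.1% of those UMIs lay in 10 cells, with 19 in the highest cell and a median of 0. Cluster 22 of the cKIT+ library showed the same unevenness for Apoe and not for the Tmem176 genes, with 89.1% of its 138 Apoe UMIs, 35.4% of its 463 Tmem176a UMIs and 31.8% of its 421 Tmem176b UMIs in the 10 highest of 92 cells. In the basophil-like cKIT- cells the 10 highest cells held 3.75% of the Apoe UMIs, 17.3% of those of Tmem176a and 19.4% of those of Tmem176b.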
